A study of Mus musculus with 9 samples.

Results

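Calcium sensors and calmodulin kinases are the genes through which a cell reads a rise in calcium and passes it on as protein phosphorylation. The genes listed were the calmodulins Calm2 and Calm3, the calmodulin-like gene Calml4, the neuronal calcium sensor gene Ncs1, the calcium and integrin binding genes Cib1 and Cib2, and the kinase genes Camk2d, Camk2g and Camk4. Every probe set annotated to exactly 1 of these 9 genes was taken, which gave 20 probe sets of 6 genes among the 45037 probe sets compared. Calm2, Calm3 and Cib2 had no such probe set in the annotation used and were not analysed here.

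Calmodulin and its relatives bind calcium through EF-hands, helix-loop-helix motifs that change shape when the ion enters. Calcium-loaded calmodulin then wraps around the regulatory segment of a CaM kinase and frees its catalytic site. In the testis this machinery is best known from haploid germ cells, where Camk4 phosphorylates nuclear proteins of spermatids and where calmodulin is abundant.

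Testes of 24-week-old C57BL/6J mice were compared between wild type (WT, 4 samples) and Tmem203 null animals (5 samples), with no treatment. Tmem203 encodes a membrane protein of the endoplasmic reticulum, and the null allele has lost its start codon and the adjoining leader sequence in every cell of the animal, with the selection cassette removed. The study describes null males as lacking sperm, and the cell composition of these samples was not counted. Total RNA was hybridised to Affymetrix mouse expression arrays, where short oligonucleotides form probe sets that each read 1 transcript or several forms of it, and every level given here is the log2 signal of a probe set after Robust Multichip Average (RMA). A probe set counted as detected when its log2 signal reached 5 on at least 1 array, and as changed when its adjusted p from limma was under 0.05. In bulk tissue, fewer cells of a type and less RNA per cell cannot be told apart. Left and right testes were harvested separately and the labels name no animal, so it is not certain that every array is another mouse. The p-values thus cover the spread among these 9 samples, and so few arrays limit how precise any value can be.

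Tmem203 itself, read by a single probe set which may lie within or outside the deleted stretch, averaged 9.81 ± 0.13 in WT (SD, n = 4) and 9.11 ± 0.03 in null testes (SD, n = 5), with no overlap (log2 change -0.70, standard error 0.06, limma adjusted p = 2.87e-04). The array medians lay between 6.96 and 7.05. WT replicate 3 stood slightly apart, with 0.996 as its highest correlation with any other array. The 10 measured markers of elongating spermatids had a mean log2 level of 14.10 to 14.12 in WT and 14.07 to 14.12 in null samples, and 0 of them were called. Levels this high may be near the upper limit of the arrays, where a loss of cells would hardly show, and this was not tested. In older null mice the study reports fewer condensed haploid cells by flow cytometry and a subtle loss of late spermatids in sections. Of the 10 measured Sertoli cell markers, 6 were higher in null testes, where 5.7% of all detected single-gene probe sets were. The mean levels of these markers were 9.88 to 10.06 in WT against 10.13 to 10.29 in null samples.

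The 250 bases upstream of the annotated start are shown for the 3 members that changed at least 1.5-fold, so that their promoters can be set side by side. They are from RefSeq on GRCm38.p6 and read 5′ to 3′ on the gene's strand, which is the plus strand for all of them: Calml4 at chr9:62857854-62858103, Ncs1 at chr2:31245673-31245922 and Camk2d at chr3:126596701-126596950. Capitals mark the GC box GGGCGG and the core GGAAA that NFAT factors read, on either strand (as CCGCCC and TTTCC on the other).
Calml4: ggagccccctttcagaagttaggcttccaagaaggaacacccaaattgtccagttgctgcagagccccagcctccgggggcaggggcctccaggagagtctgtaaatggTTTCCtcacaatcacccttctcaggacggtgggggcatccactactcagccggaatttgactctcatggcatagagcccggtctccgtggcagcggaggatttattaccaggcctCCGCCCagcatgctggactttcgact
Ncs1: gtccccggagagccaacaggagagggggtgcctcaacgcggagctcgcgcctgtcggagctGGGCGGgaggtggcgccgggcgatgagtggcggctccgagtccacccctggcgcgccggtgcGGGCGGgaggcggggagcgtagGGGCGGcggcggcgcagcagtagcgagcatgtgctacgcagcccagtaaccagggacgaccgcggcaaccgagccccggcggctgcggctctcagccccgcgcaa
Camk2d: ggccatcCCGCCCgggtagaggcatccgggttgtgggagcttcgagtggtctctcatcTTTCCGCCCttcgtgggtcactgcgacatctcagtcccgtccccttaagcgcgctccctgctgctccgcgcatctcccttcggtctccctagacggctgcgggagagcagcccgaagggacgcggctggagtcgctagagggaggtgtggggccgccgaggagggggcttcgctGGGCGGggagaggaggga

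The GC box occurred 1 time upstream of Calml4 and 3 times upstream of both Ncs1 and Camk2d, and 32.7% of 32851 windows of this length held at least 1. The GGAAA core occurred 1 time each upstream of Calml4 and Camk2d and was not in the Ncs1 window, against 55.6% of all windows. In Camk2d that core overlaps a GC box, so the capitals run together there. The cyclic AMP response element TGACGTCA (1.55% of windows), its shorter form TGACG (17.8%) and the TATA box TATAAA (12.4%), searched on both strands, were in none of these 3 windows. The windows differed in base composition, with 57.6% G and C for Calml4, 75.6% for Ncs1 and 68.4% for Camk2d. A match describes these letters only, and which start site testis cells use was not measured.

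The sensors that changed were lower in null testes and the kinase that changed was higher. Calml4, Ncs1 and, by a small margin, Cib1 fell, Camk2d rose, and Camk2g and Camk4 did not pass the test on any probe set. Of the 20 probe sets 15 were detected. Among these 15, 2 were higher in null testes (13.3%), where 5.7% of the 29238 detected single-gene probe sets were, and 5 were lower (33.3%), against 4.23%. A change of at least 1.5-fold was seen on 3 of the 15, against 1.7% of all. In 7 of the 15 (46.7%) the WT and null samples did not overlap, against 15.6% of all. The median log2 change of the 15 was 0.00, and over all detected probe sets it was -0.01. These counts describe the members, which were chosen with earlier results of these data known. A probe set each of Ncs1 and Camk2d reached the detection level in 1 genotype only, and with a log2 signal of 5 demanded on every array the counts were 1 higher and 4 lower. When an array was left out, the number lower was 3 in all fits except those without null replicate 2 (4) and without WT replicate 1 (5).

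**Figure D1:**
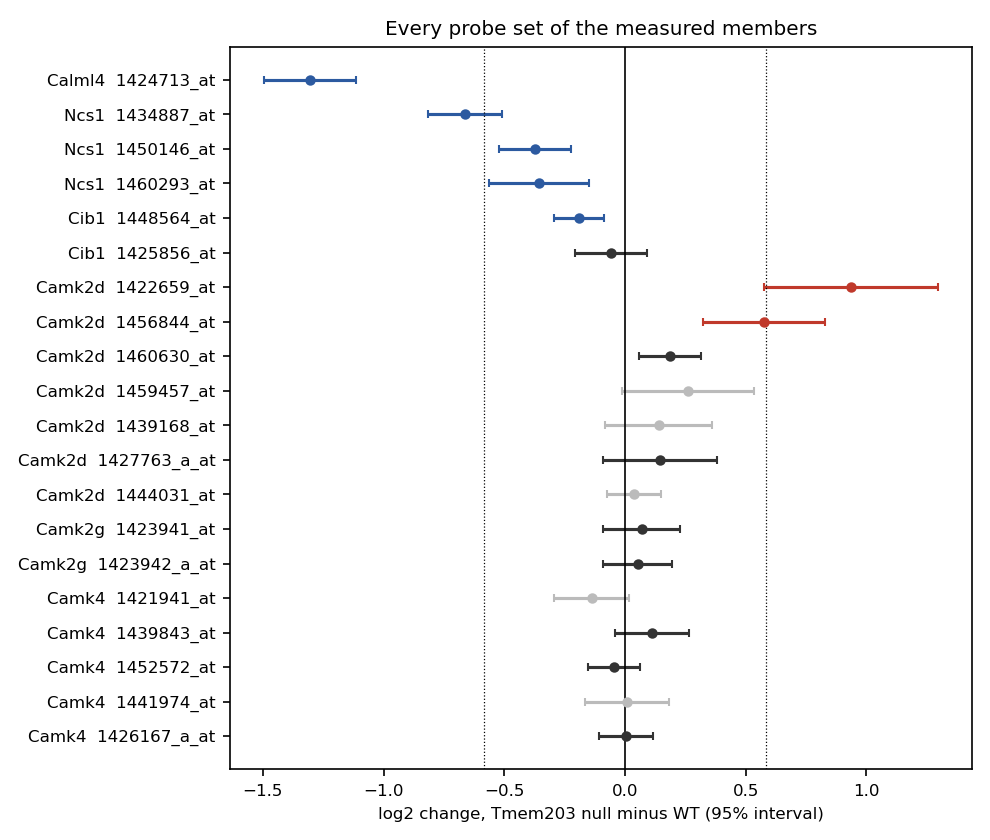
Change between genotypes (x axis, log2, Tmem203 null minus WT) with its 95% interval for all 20 probe sets of the 6 measured members (y axis). Blue and red mark an adjusted p under 0.05 from limma, black a detected probe set that did not pass and grey a probe set that was not detected, and the dotted lines mark a change of 1.5-fold. The Calml4 interval, -1.50 to -1.11, lies wholly beyond the 1.5-fold line, while those of Ncs1 and Camk2d reach inside it.

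Calml4 encodes a calmodulin-like EF-hand protein that serves as a myosin light chain in the microvilli of epithelia. Its log2 signals were 9.03, 8.93, 9.12 and 9.16 in WT replicates 1 to 4 and 7.57, 7.75, 8.01, 7.69 and 7.75 in null replicates 1 to 5. The WT samples lay within a narrow band and the null samples well below it, with no overlap. The mean fell from 9.06 ± 0.10 in WT (SD, n = 4) to 7.75 ± 0.16 (SD, n = 5), which is a change of -1.30 on the log2 scale (SE 0.09, limma adjusted p = 5.18e-05). On the linear scale this is 2.47-fold lower, with a 95% interval of 2.16 to 2.82-fold. The null samples remained far above the detection level of 5, so the transcript was reduced and still measured. Calml4 was read by 1 probe set, and whether all of its transcript forms fell was therefore not tested.

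Ncs1 encodes a myristoylated sensor that couples calcium to phosphoinositide kinases and to secretion. On its brightest probe set (1434887_at) the log2 signals were 9.62, 9.44, 9.53 and 9.52 in WT replicates 1 to 4 and 8.84, 8.68, 8.87, 8.97 and 8.95 in null replicates 1 to 5. Every null sample was below every WT sample. The log2 change was -0.66 (SE 0.07, 95% interval -0.82 to -0.51, limma adjusted p = 5.79e-04), a fall of 1.58-fold. Both other probe sets, close to the detection level, also passed the test. The first of them (1450146_at) had 4.98, 4.93, 5.09 and 5.08 in WT and 4.71, 4.81, 4.55, 4.60 and 4.58 in null samples. It entered the count through WT samples alone, since it reached the detection level only there. Its change of -0.37 (limma adjusted p = 0.00978) therefore has no well determined size and is no separate support for the fall. The remaining one (1460293_at) had 5.30, 5.46, 5.75 and 5.51 in WT and 5.30, 5.02, 5.07, 5.10 and 5.25 in null samples, with WT replicate 1 and null replicate 1 nearly level. Its change was -0.36 with an adjusted p of 0.0450 from limma, and the call was lost when any array other than WT replicate 1 was left out (adjusted p of 0.0522 to 0.0993). On the same arrays the change of the brightest probe set differed from that of 1460293_at by -0.31 (two-sided exact permutation p = 0.0476, and 0.111 after adjustment over 14 pairs of probe sets).

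Cib1 encodes a small EF-hand protein that binds integrin tails and several kinases, and mice without it are known to fail in making sperm. Its brighter probe set (1448564_at) had log2 signals of 11.85, 11.92, 11.94 and 11.92 in WT replicates 1 to 4 and 11.74, 11.76, 11.72, 11.65 and 11.71 in null replicates 1 to 5. The groups did not overlap, and the samples of each group lay close together. The log2 change was -0.19 (SE 0.05, 95% interval -0.30 to -0.09, limma adjusted p = 0.0361), or 1.14-fold. The other probe set (1425856_at) had 7.33, 7.57, 7.31 and 7.45 in WT against 7.37, 7.48, 7.29, 7.32 and 7.31 in null samples, which overlapped, and its interval was -0.21 to 0.09 (adjusted p = 0.641). When an array other than null replicate 2 or WT replicate 1 was left out, the limma adjusted p of the brighter probe set was 0.0579 to 0.0860, with changes of -0.20 to -0.17.

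**Figure D2:**
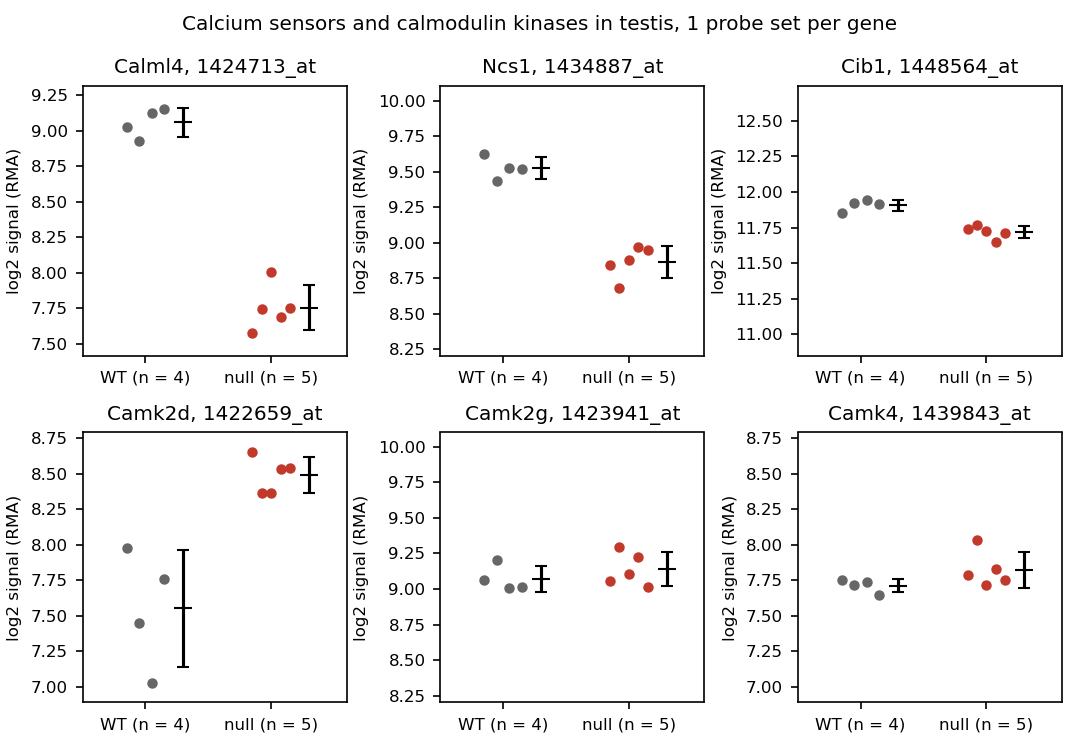
Log2 RMA signal (y axis, the same span of log2 units in every panel) of 1 detected probe set per member, the one with the smallest p, in the 4 WT (grey) and 5 Tmem203 null (red) samples, with the mean and SD in black. Null samples of Calml4, at 7.57 to 8.01, lie below all WT samples, at 8.93 to 9.16, and those of Camk2d, at 8.36 to 8.65, above all WT samples, at 7.03 to 7.98.

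Camk2d, the delta isoform of the calmodulin kinase CaMKII that is best known from the heart, rose in null testes. On its brightest probe set (1422659_at) the log2 signals were 7.98, 7.45, 7.03 and 7.76 in WT replicates 1 to 4 and 8.65, 8.36, 8.36, 8.54 and 8.54 in null replicates 1 to 5. Every null sample was above every WT sample, although the WT samples were spread over a wider range than the null samples. The mean was 7.55 ± 0.41 for WT (SD, n = 4) and 8.49 ± 0.13 for null testes (SD, n = 5), which is a change of 0.94 on the log2 scale (SE 0.16, 95% interval 0.57 to 1.30, limma adjusted p = 0.00777) or 1.91-fold. The lowest WT value was that of replicate 3, the array that stood apart. Without it the change was 0.76 (limma adjusted p = 0.00586).

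A dimmer Camk2d probe set (1456844_at) had 4.82, 4.37, 4.51 and 4.84 in WT and 5.27, 5.44, 5.03, 5.11 and 5.22 in null samples. All WT samples were under the detection level and all null samples above it. It therefore entered the count through the null samples alone, and its log2 change of 0.58 (limma adjusted p = 0.0142) has no well determined size and is no separate support for the rise. A further probe set (1460630_at) had 5.92, 5.77, 5.77 and 5.72 in WT and 6.06, 5.92, 5.92, 6.02 and 6.00 in null samples. The highest WT sample met the lowest null samples, and a change of 0.19 did not pass (adjusted p = 0.0819). On 1427763_a_at, with 5.09, 5.53, 5.55 and 5.55 in WT and 5.55, 5.54, 5.73, 5.40 and 5.66 in null samples, the groups overlapped (change 0.14, adjusted p = 0.459). The change on the brightest probe set was larger than that on 1460630_at by 0.75 on the same arrays, with an exact permutation p of 0.0159 (two-sided, adjusted 0.0741), the smallest that 4 against 5 samples allow. Of the 14 such pairs within members 0 had an adjusted p under 0.05 and 6 an unadjusted exact permutation p under 0.05, and 3 of those 6 involve a probe set that was under the detection level on some arrays.

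Camk2g, the gamma isoform and the closest relative of Camk2d on the list, had log2 signals of 9.06, 9.20, 9.01 and 9.02 in WT and 9.06, 9.30, 9.11, 9.23 and 9.02 in null samples on its brighter probe set (1423941_at). These values overlapped throughout, and the 95% interval of the change, -0.09 to 0.23, excludes a change of 1.5-fold (limma adjusted p = 0.611). The other probe set (1423942_a_at) had 7.86, 7.75, 7.62 and 7.88 in WT and 7.78, 7.81, 7.93, 7.83 and 7.80 in null samples, with an interval of -0.09 to 0.20 (adjusted p = 0.676). The difference between the isoforms was tested on the same arrays, each gene being the mean over its detected probe sets. Camk2d changed by 0.46 and Camk2g by 0.06 on this measure, a difference of 0.40 (SE 0.07, two-sided exact permutation p = 0.0159, the smallest possible). That mean includes the dim Camk2d probe set that reached the detection level in null samples alone, and Camk2d was already known to be higher in these samples. The p-value is thus no separate support for the rise of Camk2d. Over the 3 Camk2d probe sets at 5 or more on every array, an alternative chosen after seeing the data, Camk2d changed by 0.42 and the difference was 0.36 (two-sided exact permutation p = 0.0159). The change of 0.42 came mainly from 1422659_at (0.94), with 0.19 and 0.14 on the others. Within arrays Camk2d minus Camk2g was -2.69 to -2.48 in WT and -2.26 to -2.04 in null samples, with no overlap, although the levels of different genes are not comparable on arrays and only the shift between genotypes is a measurement. With the brightest probe set of each gene the difference was 0.87.

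Camk4 encodes a nuclear CaM kinase of neurons, T cells and spermatids, and an internal promoter of the same gene makes calspermin, a testis protein with the calmodulin-binding end of the kinase. On 1426167_a_at the log2 signals were 12.09, 12.03, 12.01 and 11.98 in WT and 12.03, 12.05, 12.01, 11.96 and 12.11 in null samples. On 1452572_at they were 11.89, 11.75, 11.77 and 11.82 in WT and 11.77, 11.78, 11.72, 11.77 and 11.77 in null samples. The genotypes overlapped on both, with changes of 0.00 (95% interval -0.11 to 0.11, limma adjusted p = 0.982) and -0.04 (-0.15 to 0.06, adjusted p = 0.620). The dimmer 1439843_at had 7.75, 7.72, 7.74 and 7.65 in WT and 7.79, 8.03, 7.71, 7.83 and 7.75 in null samples, and its change of 0.11 (-0.04 to 0.26) did not pass either (adjusted p = 0.368). None of these intervals reaches 1.5-fold. Which probe sets read calspermin was not known here.

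The 5 probe sets that were not detected, 3 of Camk2d and 2 of Camk4, had log2 signals of 2.91 to 4.76 on every array. Their changes were -0.14 to 0.26 and their adjusted p 0.237 to 0.959 from limma.

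**Figure D3:**
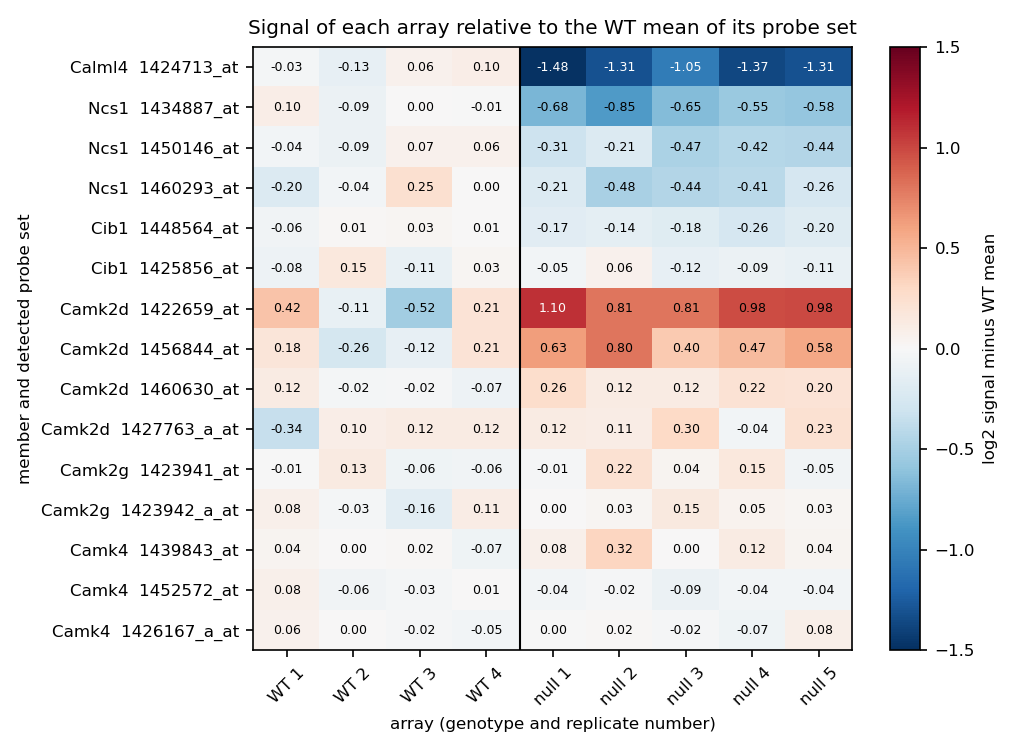
Log2 signal of each array (x axis) minus the WT mean of the same probe set, for the 15 detected probe sets of the members (y axis), with blue lower and red higher. The 5 null columns are blue throughout for Calml4 and Ncs1 and red throughout for the 3 upper Camk2d probe sets, the top one of which has the widest spread among WT arrays (SD 0.41), while Camk2g and Camk4 stay pale.

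Around the members, 8 lists of related genes held 108 measured genes of 125, the members included, each read from the probe set of smallest p. Of the 108, 9 were higher (8.33%) and 13 lower (12.0%) in null testes, where 8.03% and 6.82% of all 16180 genes were. Their median log2 change was -0.04, and that over all genes was -0.03. Without the members 8 of 102 were higher (7.84%) and 10 lower (9.8%), shares close to those over all genes. The counts among the 108 depended on single arrays, with 4 to 14 higher and 6 to 11 lower when each was left out in turn. The most higher genes, 14, were found without WT replicate 3 and the fewest, 4, without WT replicate 2 or null replicate 5, with 5 when null replicate 1 or 3 was dropped. The fewest lower genes, 6, were found without null replicate 1 or 5, with 8 when WT replicate 1, WT replicate 4 or null replicate 4 was dropped.

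Of the 3 measured genes of the calmodulin list only Calml4 passed. Calml3, a calmodulin-like gene of epithelia, was at -0.27 (limma adjusted p = 0.0635) and Calm4, a calmodulin-like gene of skin, at 0.04. Both lay around the detection level of 5, so neither change has a well determined size. Calml3 averaged 4.94 in WT and 4.67 in null samples, and Calm4 5.00 and 5.03. In the wider family of Ncs1, 3 of 11 genes fell, 0 rose and 8 did not pass, with a median of -0.10. Those that fell (27.3%, against 6.82% of all genes) include Ncs1 itself. The largest fall was that of Kcnip2, which encodes a subunit of A-type potassium channels, from 9.15 ± 0.10 in WT (SD, n = 4) to 7.96 ± 0.17 (SD, n = 5), or by -1.19 on the log2 scale (SE 0.09, limma adjusted p = 8.22e-05). This held on 1 of its 3 probe sets, and the others, at -0.21 and -0.22, did not pass. Kcnip4, of the same channel-binding group, fell by 0.33 on the log2 scale (limma adjusted p = 0.0289) on 1 of its 3 probe sets. The other Kcnip4 probe sets, at -0.31 and -0.26, did not pass (adjusted p = 0.137 and 0.232). With each array left out in turn, the Kcnip4 call was kept in 3 of 9 fits. Kcnip3 was at -0.31 (adjusted p = 0.0680). Among the 3 measured genes of the Cib1 family, Cib4 was at -0.21 (adjusted p = 0.152) and Cib3 at -0.06.

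Of 21 CaM kinase and related kinase genes 3 rose (14.3%, against 8.03% of all genes), 0 fell and 18 did not pass, with a median of 0.11. Beside Camk2d these were Dapk1, a calmodulin-dependent death-associated kinase, with a log2 change of 0.48 (SE 0.09, limma adjusted p = 0.0117), and Cask, a scaffold with a CaM kinase-like domain, with 0.44 (adjusted p = 0.0362). The other Cask probe sets, at 0.34, -0.02 and 0.03, did not pass. Mylk, the myosin light chain kinase of smooth muscle, was at 0.20 (adjusted p = 0.0504). Of the 4 regulators of CaM kinases, the phosphatase gene Ppm1e was at 0.36 (limma adjusted p = 0.0303). Ppm1f was at -0.43 (adjusted p = 0.0242) on the dimmer of its 2 probe sets (WT mean 6.55). Its brighter probe set (WT mean 8.50) was at 0.26 and did not pass, so the direction of Ppm1f is not settled. With each array left out in turn, the Ppm1e call was kept in 2 of 9 fits and the Ppm1f call in 5. Camk2n1, an inhibitor of CaMKII, was at -0.06 and did not pass.

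**Figure D4:**
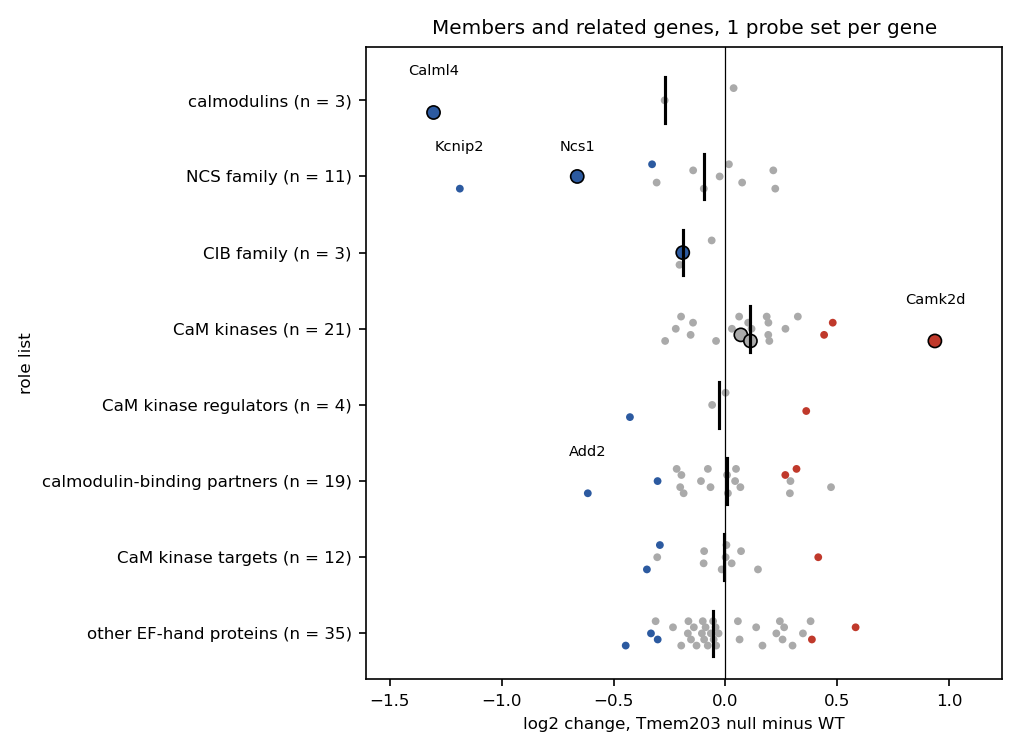
Change between genotypes (x axis, log2, Tmem203 null minus WT) for the measured genes of 8 lists (y axis), each read from the probe set of smallest p. Large outlined points are the members, blue and red passed an adjusted p under 0.05 from limma, grey did not, black bars are list medians, and the genes changed at least 1.5-fold are named. The family of Ncs1 has 3 blue points and the kinases have 3 red ones, with the members Ncs1 and Camk2d among them.

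Among transcripts of calmodulin-binding proteins a few were called in either direction. Of 19 measured genes 2 rose (10.5%, against 8.03% of all genes), 2 fell (10.5%, against 6.82%) and 15 did not pass. Add2, the beta-adducin of the membrane skeleton, had a change of -0.62 (SE 0.10, limma adjusted p = 0.00605), or 1.53-fold, on 1 of 3 probe sets, with -0.46 and -0.15 on the others. Marcks, whose calmodulin-binding domain also holds membrane lipids, rose by 0.32 (adjusted p = 0.0241), and 3 of its 6 probe sets passed. The other Marcks probe sets were at 0.50, 0.23 and -0.10. Nrgn, a neuronal store of calmodulin, fell by 0.30 (limma adjusted p = 0.0483). Add1, the alpha-adducin, named after its value was seen, was the other gene that rose, with 0.27 (limma adjusted p = 0.0494). This held on 1 of its 3 probe sets, with 0.14 and 0.10 on the others. With each array left out in turn, the Add1 call was kept in 1 of 9 fits.

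Among 12 measured targets of CaM kinases 1 rose (8.33%, against 8.03% of all genes), 2 fell (16.7%, against 6.82%) and 9 did not pass. The transcription factor gene Mef2c rose by 0.41 (limma adjusted p = 0.0127) on 3 of 5 probe sets, with -0.05 and -0.07 on the others. Mef2a fell by 0.29 (adjusted p = 0.0349) on 1 of 6 probe sets, the others at -0.07 to 0.19, and Hdac5, a deacetylase that CaM kinases move out of the nucleus, fell by 0.35 (adjusted p = 0.0456). Crem, the spermatid transcription factor, named here outside the rule for named genes, was at -0.10 (adjusted p = 0.283). Of 35 other EF-hand genes 2 rose (5.71%, against 8.03% of all genes), 3 fell (8.57%, against 6.82%) and 30 did not pass. Cabyr, a calcium-binding protein of the sperm tail sheath, fell by 0.33 (limma adjusted p = 0.00550) on 1 of 3 probe sets, with 0.02 on both others. Necab2, a neuronal calcium-binding protein, fell by 0.30 (adjusted p = 0.00879), and Efhd2, an actin-binding EF-hand protein, rose by 0.39 (adjusted p = 0.00570). Rcn1, a reticulocalbin of the endoplasmic reticulum, at 0.58 (adjusted p = 0.0230), and the centrin gene Cetn4, at -0.45 (adjusted p = 0.0252) on 1 of 2 probe sets with 0.01 on the other, were named after their values were seen. Of these 18 called genes other than the members, 7 kept the call whichever array was left out (Kcnip2, Cabyr, Efhd2, Add2, Necab2, Dapk1 and Mef2c).

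Beside the Sertoli cell markers above, other marker lists were read in the same samples. Every marker was read from its probe set of highest mean signal, and other probe sets of the same gene may differ. Over all detected single-gene probe sets 5.7% were called higher and 4.23% lower. No share was computed over all genes with probe sets chosen in this way. Leydig cell markers (5 measured of 8, 2 called higher) had mean log2 levels of 11.37 to 11.95 in WT and 11.81 to 12.20 in null samples, and macrophage markers (8 measured, 2 called higher) 8.80 to 9.24 against 9.21 to 9.42. Of the 9 measured round spermatid markers 0 were called, with 12.90 to 13.02 in WT and 12.83 to 12.93 in null samples. Of the 10 spermatocyte markers 1 was lower, and their mean levels were 11.61 to 11.70 in WT and 11.52 to 11.60 in null samples, without overlap. Of the 7 spermatogonia markers 1 was higher, with 9.45 to 9.69 against 9.64 to 9.76. Gfra1 was at -0.17 on its marker probe set (limma adjusted p = 0.153), although the published table of these samples lists Gfra1 as higher. Peritubular myoid and smooth muscle markers (0 of 6 called) had 8.98 to 9.49 in WT and 9.03 to 9.33 in null samples, and endothelial markers (1 of 7 called, lower) 6.78 to 6.92 against 6.86 to 7.03. Neuron markers, 6 measured and 5 detected, had 6.39 to 6.54 against 6.49 to 6.58, with 1 called higher (Tubb3). Skeletal muscle markers (0 of 6 called) had 5.87 to 6.04 against 5.79 to 6.06. Of 3 measured epididymis markers 1 was detected, and their mean levels were 4.62 to 4.75 in WT and 4.33 to 4.59 in null samples. The 1 called lower, Lcn5, averaged 4.24 in WT and 3.90 in null samples, under the detection level of 5. The part of any of these differences in the changes of Calml4, Ncs1 and Camk2d was not tested.

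The genes whose signal followed each changed member most closely over the 9 arrays are given as a description, since genotype is shared by all of these points. For Calml4 they were the phosphatase gene Ptp4a3 (Pearson r = 0.996), the tropomodulin gene Tmod4 (r = 0.995) and Pdap1 (r = 0.989). For Ncs1 they were the colipase gene Clps (r = 0.989), D7Ertd443e (r = 0.984) and the myosin chaperone gene Unc45b (r = 0.978). For Camk2d they were Auts2 (r = 0.988), the Integrator subunit gene Ints6 (r = 0.980) and Sipa1l3 (r = 0.980). All of the genes nearest to Calml4 and Ncs1 were lower in null testes, with log2 changes of -1.76 to -0.35, and those nearest to Camk2d were higher, with 0.44 to 0.56.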

How the data were processed

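The authors extracted total RNA from testes with a column kit, hybridised it to Affymetrix mouse expression arrays, checked the scans with arrayQualityMetrics and deposited log2 signals per probe set after RMA (background adjustment, quantile normalization, summarisation). The submitters' processing notes name limma, without a version. Without scans or scan dates, neither that background step nor batches could be examined.

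From the deposited log2 values, 5 null samples were set against 4 WT samples by limma 3.58.1 (lmFit, eBayes) in R 4.3.3, with Benjamini-Hochberg adjustment over 45037 probe sets, which leaves aside 64 of the manufacturer's controls. Thresholds were those of the methods: adjusted p under 0.05, 1.5-fold, a log2 signal of 5 (signal 32) on at least 1 array, and 1 gene symbol. In the platform annotation 34945 probe sets had 1 symbol, 932 several and 9160 none, and 34741 matched RefSeq through Entrez identifiers. Differences between probe sets of a gene and between paralogs were tested by exact permutation of samples. The procedure was tested on simulated data. Tables and figures were made with Python 3.11.15.

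The members and lists were chosen with earlier results of these data known, and published tables of changed genes from these samples had been read, which hold Calml4, Ncs1, Kcnip2, Add2 and Camk2d. Named are all members, Tmem203, of each list the other genes called at 1.5-fold and otherwise up to 3 with the smallest p, and the 3 genes most correlated with each member called at 1.5-fold. Alternatives were centring, further quantile normalization, trended and robust variance, array weights, detection filters, probe sets open to cross-hybridization, the choice of probe set, the replicate block and each array left out.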

Additional observations from a re-analysis of the deposited data

Results flagged for a closer look

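In 2 of 30 groups of samples (15 detected member probe sets in 2 genotypes), a sample lay far from the rest of its group by Dixon's ratio at the 95% level, and chance alone marks about 1 group in 20. On the Camk2d probe set 1427763_a_at, WT replicate 1 had a log2 signal of 5.09, where the other WT samples had 5.53 to 5.55. On the Camk4 probe set 1452572_at, null replicate 3 had 11.72, where the other null samples had 11.77 to 11.78. Neither probe set was called.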

How the results depend on the processing

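The changes of Calml4 (-1.37 to -1.26), of Ncs1 on 1434887_at (-0.69 to -0.62) and of Camk2d on 1422659_at (0.76 to 1.08) kept their direction and passed under every alternative run. The number of member probe sets changed at least 1.5-fold stayed between 3 and 4. Of the detected member probe sets, 2 were higher in every alternative except the demand for a log2 signal of 5 on every array (1 higher, by construction without the dim Camk2d probe set) and the replicate block. The number lower was 3 to 5 when each array was left out in turn, namely 5 without WT replicate 1, 4 without null replicate 2 (where Ncs1 on 1460293_at was lost) and 3 in the other 7 fits, where both that call and the call of Cib1 were lost. Ncs1 on 1460293_at also did not pass after further quantile normalization (adjusted p = 0.0521 from limma) or with array weights (adjusted p = 0.0538). Of the listed genes, 4 to 14 were higher when an array was left out (14 without WT replicate 3, 4 without WT replicate 2 or null replicate 5, 5 without null replicate 1 or 3) and 6 to 11 lower (6 without null replicate 1 or 5, 8 without WT replicate 1 or 4 or null replicate 4). With the probe set of highest mean signal 8 were lower. Of the 18 other called genes 0 changed direction under any alternative. The difference between Camk2d and Camk2g was 0.36 to 0.43 with an array left out, and 0.36 over probe sets at 5 or more on every array, an alternative chosen after seeing the data.

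The replicate numbers did not pair the samples: same-numbered deviations correlated at -0.08, 0.12, -0.07 and 0.04, and 1 of 4 WT and 1 of 4 null samples correlated best with its own number. With the replicate block, which drops null replicate 5, the count of member probe sets was 1 higher and 2 lower, and of listed genes 4 higher and 3 lower. The causes of these shifts were not tested.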
